A study of Mus musculus with 3 samples.

Results

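MES_DIFF is the name that the authors' cell table gives to 1 of 6 classes of mesenchymal cells from the mouse sciatic nerve. The sources used here do not spell out the name. The members are the cells of the wound bridge whose class is exactly MES_DIFF, 695 of the 7234 annotated cells of the study. Of these, 387 came from the bridge at 21 days after injury, where they were 9.41% of 4111 annotated cells (exact 95% interval 8.54% to 10.4%). The other 308 came from the bridge at 7 days after injury, where they were 17.3% of 1780 annotated cells (15.6% to 19.1%). A further 16 MES_DIFF cells of intact nerve enter no comparison.

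All animals carried the R26-TomatoLSL reporter together with Pdgfrb-cre/ERT2, a Cre recombinase that acts after tamoxifen and is driven by the promoter of the PDGF receptor beta gene. Red TdTomato+ cells were sorted from pooled nerves, so the cells compared are those in which that promoter had been active, and their descendants. The sources used here give neither the strain, nor the age, nor the number of animals. Each time point is 1 library, and no test between the days was possible. The data are single-cell RNA counts, and a level is given as CPM, the UMIs of a gene (each standing for 1 captured RNA) per 1000000 UMIs summed over the MES_DIFF cells of that library. Folds are ratios of these levels, log2 ratios have 0.5 counts added to each sum, and 95% intervals cover counting error only.

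When a nerve is cut, the gap between its stumps is filled by a bridge of inflammatory, vascular and mesenchymal tissue through which Schwann cells and axons later pass. The mesenchyme of a mature nerve is layered. Endoneurial fibroblasts lie among the fibres, perineurial cells wrap each fascicle in a barrier sealed by tight junctions and lined by basement membrane, and epineurial fibroblasts form the loose outer sheath. Fibroblasts of a fresh wound secrete a provisional matrix in which tenascin C, periostin and osteopontin are typical, and mature sheath fibroblasts make decorin and other small proteoglycans that organise collagen.

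The sorted lineage was present at both days. TdTomato was at 60.3 CPM at day 21 and 79.8 CPM at day 7, Pdgfrb at 98.4 CPM at day 21 and 107 CPM at day 7, and Pdgfra, the PDGF receptor alpha gene common to fibroblasts, at 165 CPM at day 21 and 208 CPM at day 7. Xist, at 95.9 CPM at day 21 and 74.3 CPM at day 7, and the Y-linked Ddx3y, at 61.1 CPM at day 21 and 45.5 CPM at day 7, were both detected. No listed marker of skeletal muscle, red cells, fat cells or any leukocyte (myeloid, lymphoid, neutrophil or mast cell) reached 10 CPM at either day. The median MES_DIFF cell held 9178 UMIs at day 21 and 26050 UMIs at day 7, so the later cells are the shallower ones. Mitochondrial genes took 1.64% of UMIs at day 21 and 0.86% at day 7, and ribosomal protein genes 15.6% at day 21 and 19.5% at day 7. With both gene sets left out of the total, 169 of 173 named genes past 2-fold stayed so in the same direction, and with cells thinned to equal depth 158 did. The 2 libraries shared 58 cell barcodes, among them 0 MES_DIFF cells of day 21 and 1 of day 7.

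The class did not occupy the same clusters at the 2 days. When all annotated cells were clustered on their expression, 215 of the 387 day 21 MES_DIFF cells (55.6%) fell in cluster 7, led by Lgals7, Dusp5, Tnfsf8 and S100a4, 93 (24.03%) in cluster 1, 59 (15.2%) in cluster 4 and 11 in cluster 13. At day 7, 258 of the 308 cells (83.8%) were in cluster 13, led by Tnc, Lrrc15, Tnmd and Spon1, and 33 (10.7%) in cluster 12; of these leading genes Tnmd had only 24 UMIs in day 7 MES_DIFF cells. Cluster 7 also held 213 day 21 cells of the class MES_PERI, cluster 1 held 877 of MES_EPI and cluster 4 held 642 of MES_PERI. Of the day 7 cells, cluster 13 also held 87 of MES_EPI-diff and 74 of MES_EPI, and cluster 12 held 230 of MES_ENDO and 208 of MES_PERI. The values below therefore compare the authors' class between days, not 1 cluster followed through time, and the markers do not place it in a single nerve layer.

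Of 53380 genes in the count matrices, 8376 reached 10 CPM in at least 1 of the 2 MES_DIFF sums. Among them 757 (9.04%) were over 2-fold higher at day 21 than at day 7 and 399 (4.76%) were over 2-fold lower. At 4-fold the counts were 205 higher and 110 lower. The median gene differed by a log2 ratio of 0.10, which is the level against which the gene groups below are read.

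**Figure D1:**
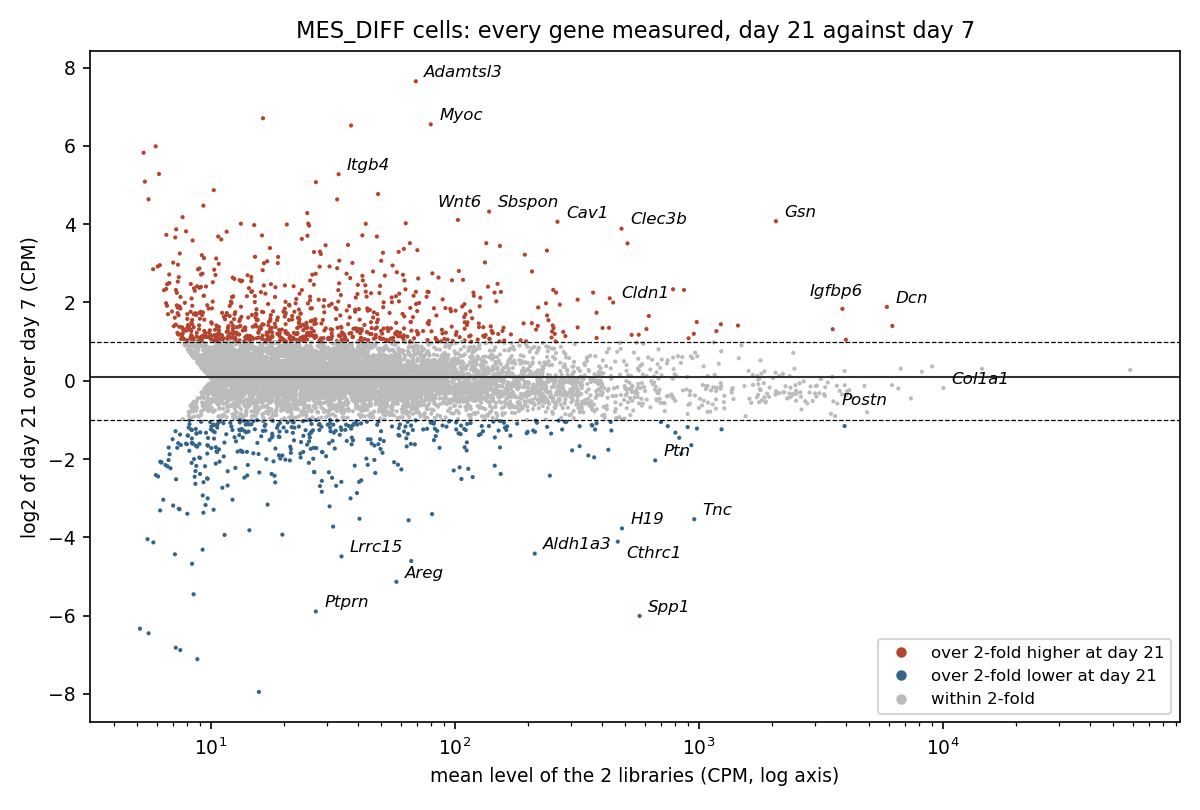
Every measured gene in MES_DIFF cells, with its mean level over the 2 days in CPM on a log axis (x) and its log2 ratio of day 21 to day 7 (y). The solid line marks the median of all genes, 0.10, the dashed lines mark 2-fold, and red and blue points lie beyond it. Gsn, Dcn and Cldn1 lie far above the median at high levels, and Spp1, Tnc, Cthrc1 and H19 lie far below it.

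The 8 genes listed as marking mesenchymal cells of the injured nerve were all measured, and 7 were over 2-fold lower at day 21, against 4.76% of all measured genes. Their summed level was 2992 CPM at day 21 and 8842 CPM at day 7, and their median log2 ratio was -3.82. The list was chosen with earlier results of these data known, so its count and median are descriptions and test nothing. Tnc, which encodes the provisional matrix protein tenascin C, was at 152 CPM at day 21 and 1765 CPM at day 7, 11.6-fold lower (10.7 to 12.6). Cthrc1, a secreted protein of activated fibroblasts, was at 50.9 CPM at day 21 and 880 CPM at day 7, 17.3-fold lower (15.03 to 20.02). Lrrc15, a membrane protein of activated fibroblasts, was at 2.81 CPM at day 21 and 65.8 CPM at day 7, 23.4-fold lower (12.98 to 47.2). Aldh1a3, an enzyme that makes retinoic acid, was at 18.9 CPM at day 21 and 406 CPM at day 7, 21.5-fold lower (17.1 to 27.4). Areg encodes amphiregulin, a ligand of the EGF receptor, and was at 3.07 CPM at day 21 and 112 CPM at day 7, 36.6-fold lower (20.8 to 71.0). Postn, which encodes periostin, was the member that did not pass 2-fold: it was at 2489 CPM at day 21 and 4468 CPM at day 7, 1.80-fold lower (1.75 to 1.84). The wound matrix genes were thus not alike, since periostin differed by less than 2-fold and tenascin C by more than 10-fold.

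The UMIs of Tnc and Cthrc1 were concentrated in few day 21 cells and spread over the day 7 cells. This did not hold for the whole list, since only 24.03% of day 7 cells held an Areg UMI as sequenced. A Tnc UMI was found in 19.6% of day 21 cells and 94.5% of day 7 cells as sequenced, and a Cthrc1 UMI in 16.02% of day 21 and 99.03% of day 7 cells. To compare cells at equal depth, each was thinned at random to 2000 UMIs, which no MES_DIFF cell fell short of. Then 9.04% of day 21 cells and 70.8% of day 7 cells held a Tnc UMI, and 6.46% at day 21 and 68.8% at day 7 a Cthrc1 UMI. In MES_PERI cells, the class with the lowest Tnc level, the Tnc shares were 0.677% at day 21 and 2.91% at day 7. Over all annotated cells outside MES_DIFF, Tnc was at 26.0 CPM at day 21 and 455 CPM at day 7. The 20 day 21 MES_DIFF cells with most Tnc held 80.5% of its UMIs, against 27.3% in the 16 day 7 cells with most, each being about 5% of the class. For Cthrc1 such cells held 72.9% at day 21 and 17.9% at day 7, but for Postn only 28.5% at day 21 and 15.9% at day 7. By cluster, Tnc was at 43.9 CPM in the day 21 cells of cluster 7, 14.4 CPM in those of cluster 4 and 237 CPM in those of cluster 1. In the day 7 cells of clusters 13 and 12 it was at 2000 CPM and 343 CPM. Of the 594 Tnc UMIs at day 21, clusters 7, 4 and 1 held 93, 7 and 247. The rest lay in the few day 21 cells outside these clusters.

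Osteopontin was among the genes with the largest difference. Spp1, its gene, had 68 UMIs or 17.4 CPM at day 21 and 9018 UMIs or 1127 CPM at day 7, 64.8-fold lower (51.1 to 83.5). After thinning, 1.81% of day 21 MES_DIFF cells and 48.1% of day 7 cells held an Spp1 UMI (5.17% and 82.5% before thinning). In MES_EPI, the class with the lowest level, 0.292% of day 21 and 3.55% of day 7 cells did. The shares in MES_ENDO were above those of MES_DIFF, at 21.6% at day 21 and 63.1% at day 7. They were 5.51% at day 21 and 45.6% at day 7 in MES_PERI, and 3.36% and 33.5% in MES_DIV. Other secreted genes in this direction were Spon1, the matrix protein spondin 1, at 5.11 CPM at day 21 and 127 CPM at day 7 (24.9-fold lower), and C1qtnf3, a secreted C1q-like protein, at 4.35 CPM at day 21 and 59.1 CPM at day 7 (13.6-fold lower). Ptprn, a receptor-like phosphatase of secretory granules, had 3 UMIs at day 21 and 425 at day 7, 69.2-fold lower with a wide counting interval (23.5 to 337). Runx2, a bone and fibroblast transcription factor, was at 16.1 CPM at day 21 and 71.8 CPM at day 7, 4.46-fold lower (3.43 to 5.88). The stretch of 250 bases before the first of the 2 RefSeq starts of Spp1 is shown (mouse GRCm38.p6, chr5:104434861-104435110, plus strand). It was chosen because this gene was among those with the largest difference. Spp1 is a textbook RUNX target in bone, and a part of Runx2 in its level here was not tested. Capitals mark a match to the letters of the TATA box (TATAAA), 211 bases before the start. Next come the RUNX motif (TGTGGT), at 128 bases, and the CCAAT box, at 46 bases, these 2 read on the opposite strand.
Spp1: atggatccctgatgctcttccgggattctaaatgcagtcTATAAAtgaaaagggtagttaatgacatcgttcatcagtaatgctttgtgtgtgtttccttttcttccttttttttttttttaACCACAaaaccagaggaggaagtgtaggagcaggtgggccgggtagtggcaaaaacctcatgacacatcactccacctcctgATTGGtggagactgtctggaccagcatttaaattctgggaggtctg
The RUNX motif was found in 14.05% of 32851 promoter windows of the same length, the TATA box in 12.4% and CCAAT in 33.8%, each on either strand, so the matches describe the sequence and no more. The window before the second Spp1 start (chr5:104435942-104436191), not printed, held no match to any of these motifs.

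**Figure D2:**
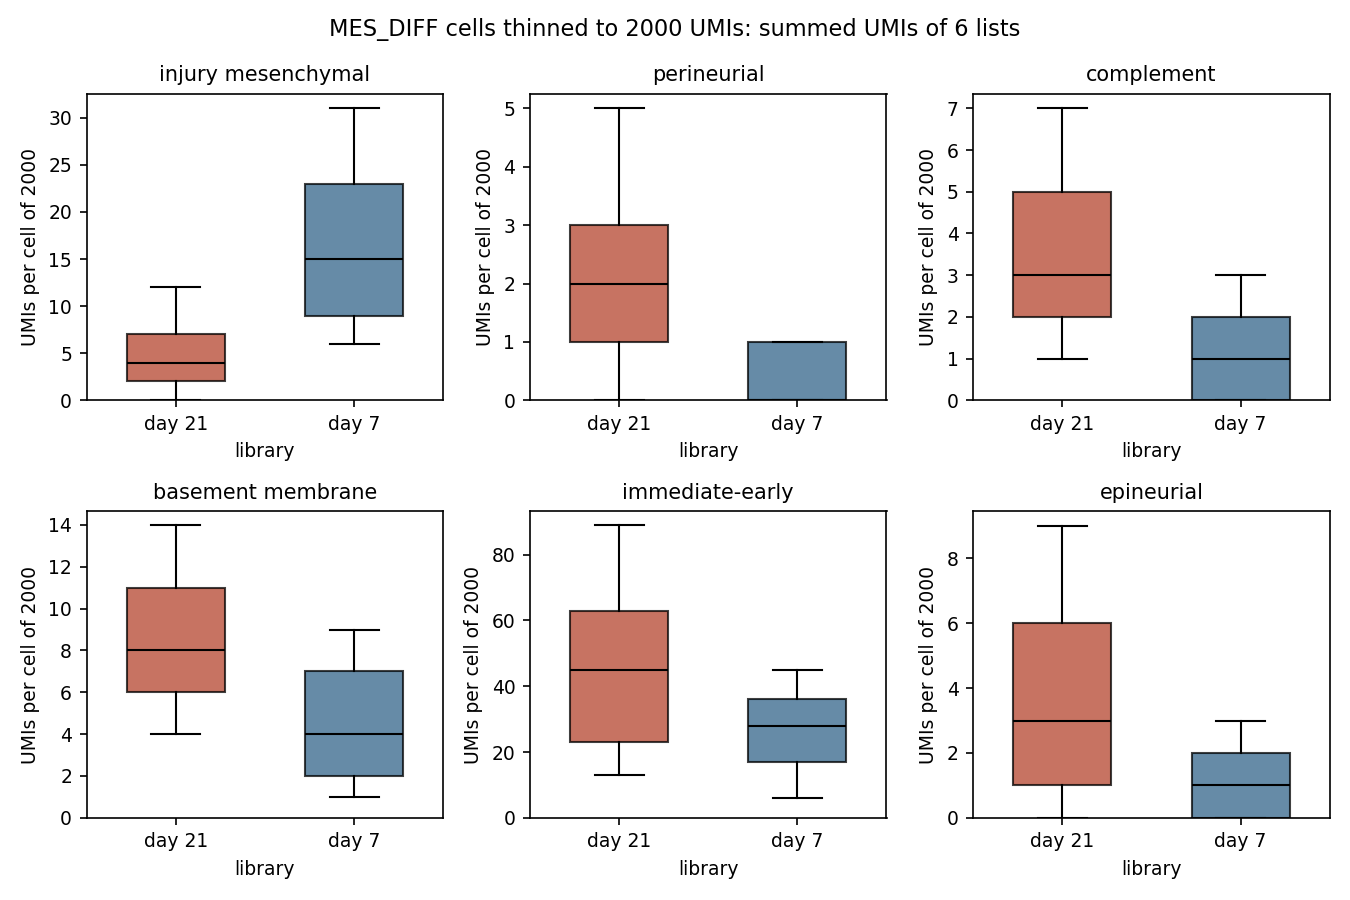
Summed UMIs of 6 gene lists per MES_DIFF cell after thinning every cell to 2000 UMIs, for day 21 (left of each pair) and day 7. Boxes span the quartiles with the median inside and whiskers run from the 10th to the 90th percentile of cells, which shows the spread over cells and not over animals. The median cell held 4 UMIs of the injury list at day 21 and 15 at day 7, and the perineurial and complement lists go the other way.

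Many growth and division genes were lower too. Of 14 listed imprinted growth genes 13 were measured, 6 of them over 2-fold lower and 1 over 2-fold higher; their median log2 ratio was -0.65. H19, a non-coding RNA made from the maternal chromosome, was at 66.0 CPM at day 21 and 903 CPM at day 7, 13.7-fold lower (12.1 to 15.6). Its neighbour on chromosome 7, the growth factor gene Igf2, had 0 UMIs at day 21 and 115 at day 7, at least 18.7-fold lower when 0 is read as 3 counts. Mest was at 451 CPM at day 21 and 1413 CPM at day 7, 3.13-fold lower (2.98 to 3.29). Peg3, at 121 CPM at day 21 and 118 CPM at day 7, and Gnas, at 3112 CPM at day 21 and 3484 CPM at day 7, stayed within 2-fold, so this network did not shift as a block. H19 was lower in every other class compared as well, with log2 ratios of -3.64 in MES_DIV, -3.89 in MES_ENDO, -3.71 in MES_EPI and -4.42 in MES_PERI.

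Of 17 S phase genes 13 were measured, with a median log2 ratio of -1.08, and 7 were over 2-fold lower. Mcm2 and Mcm3, subunits of the replicative helicase, were at 3.07 and 2.56 CPM at day 21, against 13.6 and 16.1 CPM at day 7. Only 3 of 20 mitotic genes were measured, and all 3 were over 2-fold lower; Ccnb2, cyclin B2, was at 2.81 CPM at day 21 and 15.2 CPM at day 7. No day 21 MES_DIFF cell and 5 day 7 cells held 3 or more mitotic UMIs after thinning, so division genes were low at both days. Of 16 contractile genes 12 were measured, 4 of them over 2-fold lower and none over 2-fold higher. Acta2, the smooth muscle actin of myofibroblasts, was at 9.97 CPM at day 21 and 119 CPM at day 7, 11.97-fold lower (8.69 to 16.9).

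Collagen output as a whole differed little. The 17 fibrillar and associated collagen genes summed to 35754 CPM at day 21 and 34573 CPM at day 7, and 16 were measured with a median log2 ratio of -0.21. Col1a1 was at 9411 CPM at day 21 and 10711 CPM at day 7 and Col3a1 at 10189 CPM at day 21 and 7901 CPM at day 7, so that 2 main chains of fibrillar collagen stayed within 2-fold. The 2 members past 2-fold were Col11a1, at 14.1 CPM at day 21 and 63.7 CPM at day 7, and Col8a1, at 155 CPM at day 21 and 494 CPM at day 7, both lower. Genes that modify collagen leaned the same way, with 14 of 17 measured, a median of -0.51 and 2 over 2-fold lower. Lox, the lysyl oxidase that cross-links collagen and elastin, was at 49.6 CPM at day 21 and 259 CPM at day 7, 5.22-fold lower (4.50 to 6.08). Of 22 proteases and inhibitors 18 were measured, 2 over 2-fold higher and 5 over 2-fold lower. Timp1, an inhibitor of matrix metalloproteinases, was at 153 CPM at day 21 and 593 CPM at day 7, 3.88-fold lower (3.57 to 4.24), and Serpine2, a secreted protease inhibitor, at 77.0 CPM at day 21 and 414 CPM at day 7.

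Some genes of the proteoglycans that coat and space collagen fibrils were higher. The 12 small leucine-rich proteoglycan genes summed to 12898 CPM at day 21 and 5358 CPM at day 7, and of the 9 measured 4 were over 2-fold higher and none over 2-fold lower. Dcn, decorin, was at 9287 CPM at day 21 and 2513 CPM at day 7, 3.70-fold higher (3.63 to 3.76), with a UMI in 99.7% of day 21 and 96.4% of day 7 cells after thinning and in every cell before. Prelp, a proteoglycan that anchors basement membranes to connective tissue, was at 280 CPM at day 21 and 25.7 CPM at day 7, 10.9-fold higher (9.38 to 12.7), and Ecm2 at 350 CPM at day 21 and 37.5 CPM at day 7, 9.33-fold higher (8.23 to 10.6). The other 5 measured stayed within 2-fold, among them Bgn, biglycan, at 905 CPM at day 21 and 1376 CPM at day 7.

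Some basement membrane genes were higher as well, and the list had a sum of 4489 CPM at day 21 and 2471 CPM at day 7. Of 17 listed 13 were measured, 5 over 2-fold higher and none over 2-fold lower, and the median cell of 2000 UMIs held 8 of their UMIs at day 21 and 4 at day 7. Col4a1, a chain of collagen IV, was at 1329 CPM at day 21 and 579 CPM at day 7, and Nid2, nidogen 2, which links laminin to collagen IV, was at 169 CPM at day 21 and 52.1 CPM at day 7. Agrn, agrin, was the member in the other direction, at 13.8 CPM at day 21 and 23.2 CPM at day 7. In the matricellular list, with 16 of 18 measured, 3 over 2-fold higher and 5 over 2-fold lower, Tgfbi, a collagen-binding secreted protein, was at 700 CPM at day 21 and 163 CPM at day 7, 4.30-fold higher (4.03 to 4.60), whereas Thbs2, thrombospondin 2, was at 137 CPM at day 21 and 469 CPM at day 7. Among 16 elastic fibre genes, all measured, with 2 higher and 4 lower, Ltbp4, which helps assemble elastin and stores TGF-beta, was at 1310 CPM at day 21 and 259 CPM at day 7. Mfap4, an elastic microfibril protein, was at 140 CPM at day 21 and 357 CPM at day 7.

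Perineurial markers were higher at day 21 in every measured case. Of 8 listed 6 reached 10 CPM, only 2 of them at both days, and all 6 were over 2-fold higher, a count that follows in part from that floor. Over the full list the sums were 995 CPM at day 21 and 207 CPM at day 7. Cldn1, claudin 1, a tight junction protein of perineurial cells, was at 713 CPM at day 21 and 178 CPM at day 7, 3.995-fold higher (3.75 to 4.26), with a UMI in 68.0% of day 21 and 25.6% of day 7 cells after thinning (91.2% and 75.97% before). Itgb4, the integrin beta 4 chain that binds laminin, was at 65.2 CPM at day 21 and 1.62 CPM at day 7, 40.1-fold higher (23.1 to 76.4). Lypd2 was at 52.4 CPM at day 21 and 1.499 CPM at day 7, Krt19, a keratin, at 46.8 CPM at day 21 and 7.00 CPM at day 7, and Slc2a1, the glucose transporter GLUT1, at 56.0 CPM at day 21 and 12.2 CPM at day 7. The MES_PERI class carried these markers at higher levels at both days, Itgb4 at 422 CPM at day 21 and 102 CPM at day 7 and Cldn1 at 1090 CPM at day 21 and 281 CPM at day 7. After thinning, 11.1% of day 21 MES_DIFF cells held an Itgb4 UMI (28.4% before), against 49.3% of MES_PERI, 3.08% of MES_ENDO and 2.24% of MES_EPI cells of that day.

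The perineurial markers were unevenly shared among the day 21 cells. With 3 or more perineurial UMIs counted per thinned cell, 125 of 387 day 21 cells (32.3%) and 5 of 308 day 7 cells (1.62%) passed. Their sum was 1349 CPM in the day 21 cells of cluster 7, 983 CPM in cluster 4 and 355 CPM in cluster 1, and at day 7 it was 451 CPM in cluster 12 and 183 CPM in cluster 13. Cluster 1 of day 21 instead had the highest epineurial sum, 3749 CPM, against 2095 CPM in cluster 4 and 1207 CPM in cluster 7.

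**Figure D3:**
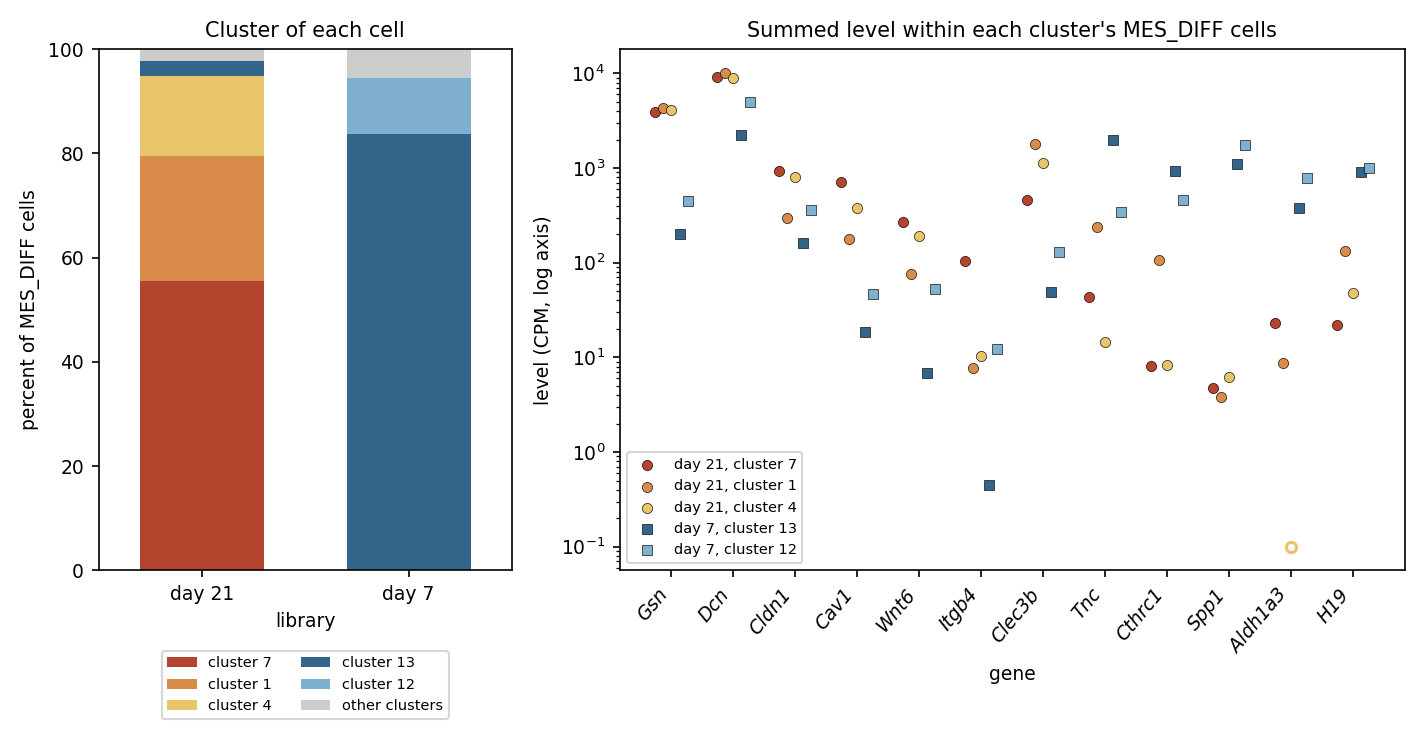
Left, the percent of MES_DIFF cells in each cluster at day 21 and at day 7; right, the level of 12 genes in CPM on a log axis for the MES_DIFF cells of each cluster that holds 30 or more of them, circles for day 21 and squares for day 7. The open circle at 0.1 stands for 0 Aldh1a3 UMIs. Tnc and Cthrc1 are highest in cluster 13, Itgb4 and Cldn1 are highest in cluster 7, and Gsn is high in every day 21 cluster.

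Several junction and caveolar genes were higher too. Of 25 listed 13 were measured, with a median log2 ratio of 1.60, 7 over 2-fold higher and 1 over 2-fold lower. Tjp1, the scaffold protein ZO-1 of tight junctions, was at 179 CPM at day 21 and 52.4 CPM at day 7, and Ocln, occludin, at 17.9 CPM at day 21 and 0.75 CPM at day 7 from 70 UMIs at day 21 and 6 at day 7. Gjb2, a gap junction connexin, was the lower one, at 8.69 CPM at day 21 and 44.5 CPM at day 7. Cav1 and Cav2, which encode coat proteins of the membrane pits called caveolae, are neighbours on chromosome 6. Cav1 was at 497 CPM at day 21 and 29.7 CPM at day 7, 16.7-fold higher (14.6 to 19.2), with a UMI in 54.3% of day 21 and 5.19% of day 7 cells after thinning (80.6% and 22.7% before), and Cav2 at 47.3 CPM at day 21 and 2.37 CPM at day 7, 19.9-fold higher (12.4 to 33.8). Cavin1 and Cavin2, which stabilise caveolae, were at 610 and 89.0 CPM at day 21, against 128 and 6.87 CPM at day 7.

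Another pair of neighbours was on chromosome 1. Wnt6, a secreted Wnt ligand, was at 195 CPM at day 21 and 11.2 CPM at day 7, 17.3-fold higher (13.9 to 21.8), with a UMI in 30.7% of day 21 and 2.92% of day 7 MES_DIFF cells after thinning (75.2% and 17.9% before). In the MES_EPI class the thinned shares were 3.70% at day 21 and 0.888% at day 7, and in MES_ENDO 5.54% and 2.35%. They were 26.9% at day 21 and 5.34% at day 7 in MES_DIV. In MES_PERI they were above those of MES_DIFF, at 49.6% at day 21 and 12.4% at day 7. The close neighbour of Wnt6, Wnt10a, a second Wnt ligand gene, had 78 UMIs or 19.9 CPM at day 21 and 5 UMIs or 0.625 CPM at day 7. Both pairs were picked out after their values were seen. The 250 bases before the RefSeq starts of Cav1 (chr6:17306085-17306334, the first of its 2 starts), Cav2 (chr6:17280935-17281184) and Wnt6 (chr1:74771642-74771891), all on the plus strand of GRCm38.p6, are given so that the promoters of genes higher together can be compared. Capitals mark GC boxes (GGGCGG, or CCGCCC on the opposite strand), a CCAAT box and an AP-1 site (TGANTCA). They also mark a match to the letters of the TATA box (TTTATA on the opposite strand), 221 bases before the start of Cav1.
Cav1: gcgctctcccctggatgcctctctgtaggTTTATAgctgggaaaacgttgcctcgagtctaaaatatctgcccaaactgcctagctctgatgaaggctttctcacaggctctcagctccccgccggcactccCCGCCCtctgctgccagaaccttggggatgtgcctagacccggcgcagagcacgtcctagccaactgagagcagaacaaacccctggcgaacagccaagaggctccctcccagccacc
Cav2: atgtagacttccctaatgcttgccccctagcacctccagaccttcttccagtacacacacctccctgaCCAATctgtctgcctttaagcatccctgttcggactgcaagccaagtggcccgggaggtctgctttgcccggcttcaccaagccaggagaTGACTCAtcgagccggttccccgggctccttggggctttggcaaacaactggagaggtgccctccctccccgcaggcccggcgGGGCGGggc
Wnt6: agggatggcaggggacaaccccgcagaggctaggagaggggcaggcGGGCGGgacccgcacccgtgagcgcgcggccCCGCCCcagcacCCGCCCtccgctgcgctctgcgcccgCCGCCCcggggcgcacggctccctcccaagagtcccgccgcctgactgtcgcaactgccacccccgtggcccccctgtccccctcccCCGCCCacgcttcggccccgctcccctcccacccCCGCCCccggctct
The 3 windows have GC boxes in common, 1 each in Cav1 and Cav2 and 6 in Wnt6, a motif found in 32.7% of all windows of this length. The window before the second Cav1 start (chr6:17307390-17307639), not printed, held no GC box and no match to any other motif searched. The AP-1 site of Cav2 lies 92 bases before the start and is a motif of 6.75% of windows. No match overlapped another, and a match is a description of the letters only.

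Epineurial markers did not move as 1 group. Of 11 epineurial markers 10 were measured, 5 over 2-fold higher and 1 over 2-fold lower, with sums of 2020 CPM at day 21 and 655 CPM at day 7. Clec3b, tetranectin, was at 903 CPM at day 21 and 61.1 CPM at day 7, 14.8-fold higher (13.4 to 16.3), Tnxb, tenascin X, at 247 CPM at day 21 and 21.6 CPM at day 7, and Dpp4, a surface peptidase, at 43.7 CPM at day 21 and 3.50 CPM at day 7. Sfrp2, a secreted Wnt modulator, was lower at 5.62 CPM at day 21 and 30.9 CPM at day 7. Gsn, which encodes gelsolin, a protein that cuts actin filaments, was at 3909 CPM at day 21 and 232 CPM at day 7, 16.9-fold higher (16.1 to 17.7), and held a UMI in 99.5% of day 21 and 35.1% of day 7 cells after thinning (all and 95.8% before). Igfbp6, a binding protein for insulin-like growth factor, was at 6061 CPM at day 21 and 1697 CPM at day 7, 3.57-fold higher (3.50 to 3.65). Endoneurial markers gave no common direction, with 3 of 8 over 2-fold higher and 2 over 2-fold lower; Apod, a lipid carrier, was at 250 CPM at day 21 and 122 CPM at day 7 and Wif1, a secreted Wnt inhibitor, had 1 UMI at day 21 and 134 at day 7.

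Among the 15 genes with the largest ratio in the higher direction several have no list. Adamtsl3, a secreted matrix protein of the ADAMTS-like family, had 539 UMIs or 138 CPM at day 21 and 5 UMIs or 0.625 CPM at day 7, 221-fold higher (93.9 to 682). Myoc, myocilin, was at 158 CPM at day 21 and 1.62 CPM at day 7, 97.1-fold higher (56.4 to 183), but was far more abundant in MES_ENDO cells, at 1492 CPM at day 21 and 27.0 CPM at day 7. Spink1, a secreted protease inhibitor, was at 74.4 CPM at day 21 and 0.75 CPM at day 7, and Sbspon at 263 CPM at day 21 and 13.1 CPM at day 7. Kitl, the ligand of the receptor KIT, was at 77.7 CPM at day 21 and 5.87 CPM at day 7. Steap4, a metalloreductase, was at 119 CPM at day 21 and 7.25 CPM at day 7 and Kank4 at 81.3 CPM at day 21 and 5.00 CPM at day 7.

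Complement genes were higher at day 21. Of 15 listed 8 were measured, 7 of them over 2-fold higher and none over 2-fold lower, with sums of 1858 CPM at day 21 and 595 CPM at day 7. C2, a protease of the classical pathway, was at 128 CPM at day 21 and 12.6 CPM at day 7, 10.1-fold higher (8.17 to 12.7). C1s1, another classical pathway protease, was at 428 CPM at day 21 and 111 CPM at day 7, and Serping1, the C1 inhibitor, was at 872 CPM at day 21 and 349 CPM at day 7. C3 did not follow, at 11.2 CPM at day 21 and 13.99 CPM at day 7. Proteases and an inhibitor of the cascade were thus higher side by side. The list sum was alike in the day 21 clusters, between 1811 CPM in cluster 4 and 1955 CPM in cluster 1.

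Chemokines and cytokines had no common direction, with 17 of 23 measured, 2 over 2-fold higher and 7 over 2-fold lower. Ccl2, the main attractant of monocytes, was at 147 CPM at day 21 and 332 CPM at day 7, and Cxcl2, an attractant of neutrophils, at 71.3 CPM at day 21 and 184 CPM at day 7. Il33, an alarm cytokine, was at 51.6 CPM at day 21 and 168 CPM at day 7, 3.25-fold lower (2.80 to 3.79). Ccl11, eotaxin, was at 363 CPM at day 21 and 114 CPM at day 7, 3.17-fold higher (2.92 to 3.45). Interferon and MHC class I genes had 18 of 21 measured, 3 over 2-fold higher and none over 2-fold lower, among them Irf1 at 361 CPM at day 21 and 123 CPM at day 7.

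In signalling, hedgehog genes leaned one way, most without passing 2-fold. The 11 listed were all measured, with log2 ratios from 0.23 to 1.83 and a median of 0.67, and 2 passed 2-fold: Hhip, a decoy that binds the ligand, at 63.2 CPM at day 21 and 17.7 CPM at day 7, and Boc, a co-receptor, at 51.1 CPM at day 21 and 14.4 CPM at day 7. Neither held throughout: Hhip had a log2 ratio of 0.44 in cluster 7 at day 21 against cluster 13 at day 7, and Boc 0.96 after thinning. The target gene and receptor Ptch1 was at 232 CPM at day 21 and 150 CPM at day 7, and Gli1, a target and effector, at 83.6 CPM at day 21 and 52.5 CPM at day 7. Wnt ligands and receptors had 12 of 18 measured, 7 over 2-fold higher and 1 over 2-fold lower, with Wnt5a at 70.6 CPM at day 21 and 29.2 CPM at day 7. Of 17 Wnt targets and inhibitors 6 were measured and 3 were over 2-fold lower, and the common target Axin2 had only 16 UMIs at day 21 and 9 at day 7. Most listed targets were below 10 CPM at both days.

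TGF-beta genes split. Tgfb1, the ligand, was at 42.4 CPM at day 21 and 122 CPM at day 7, and Skil, a feedback inhibitor, at 69.3 CPM at day 21 and 182 CPM at day 7. The co-receptor Tgfbr3 was higher at 117 CPM at day 21 and 40.5 CPM at day 7. Of 16 measured of 17, 2 were over 2-fold higher and 4 over 2-fold lower. In the EGF family, Areg and Hbegf, ligands, were lower, Hbegf at 18.7 CPM at day 21 and 43.0 CPM at day 7 (log2 ratio -0.43 after thinning, within 2-fold), and Erbb2, a receptor, was higher at 19.9 CPM at day 21 and 7.75 CPM at day 7, with 5 of 12 measured. In the IGF axis, with 11 of 14 measured, 1 higher and 3 lower, Igfbp5 and Igfbp3 were lower and Igfbp6 higher, so binding proteins of the same ligands differed in opposite directions; Igfbp5 was at 737 CPM at day 21 and 1743 CPM at day 7. Notch genes had 7 of 13 measured and 3 over 2-fold higher, Hes1, a target, at 519 CPM at day 21 and 243 CPM at day 7. BMP and GDF genes had 11 of 19 measured, 3 over 2-fold higher and 1 lower, and PDGF and FGF genes 11 of 19, with 3 higher, among them Spry1, a feedback inhibitor of FGF signalling, at 125 CPM at day 21 and 28.2 CPM at day 7.

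Guidance genes, which steer axons and vessels, had 21 of 28 measured, 7 over 2-fold higher and 5 over 2-fold lower. Ntn1, netrin 1, was at 71.8 CPM at day 21 and 12.1 CPM at day 7, 5.93-fold higher (4.69 to 7.55), and Nrp2, a semaphorin and VEGF co-receptor, at 122 CPM at day 21 and 19.9 CPM at day 7, 6.13-fold higher (5.11 to 7.38). The netrin receptor gene Unc5b had 2 UMIs at day 21 and 84 at day 7. Neurotrophic genes had 6 of 14 measured, and the 3 past 2-fold were lower. Ptn, the growth factor pleiotrophin, was at 260 CPM at day 21 and 1066 CPM at day 7, 4.10-fold lower (3.84 to 4.38), and its relative Mdk, midkine, at 462 CPM at day 21 and 1031 CPM at day 7. Angiogenic genes had 10 of 17 measured, 3 past 2-fold in each direction. Vegfa, the main vascular growth factor, was at 67.2 CPM at day 21 and 82.5 CPM at day 7, Angpt1, the ligand of the endothelial receptor TIE2, was lower at 7.93 CPM at day 21 and 30.1 CPM at day 7, and Angptl2 was higher at 165 CPM at day 21 and 53.5 CPM at day 7. Retinoid genes had 10 of 15 measured and 3 over 2-fold lower, Rdh10, an early enzyme of retinoic acid synthesis, at 75.7 CPM at day 21 and 185 CPM at day 7.

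**Figure D4:**
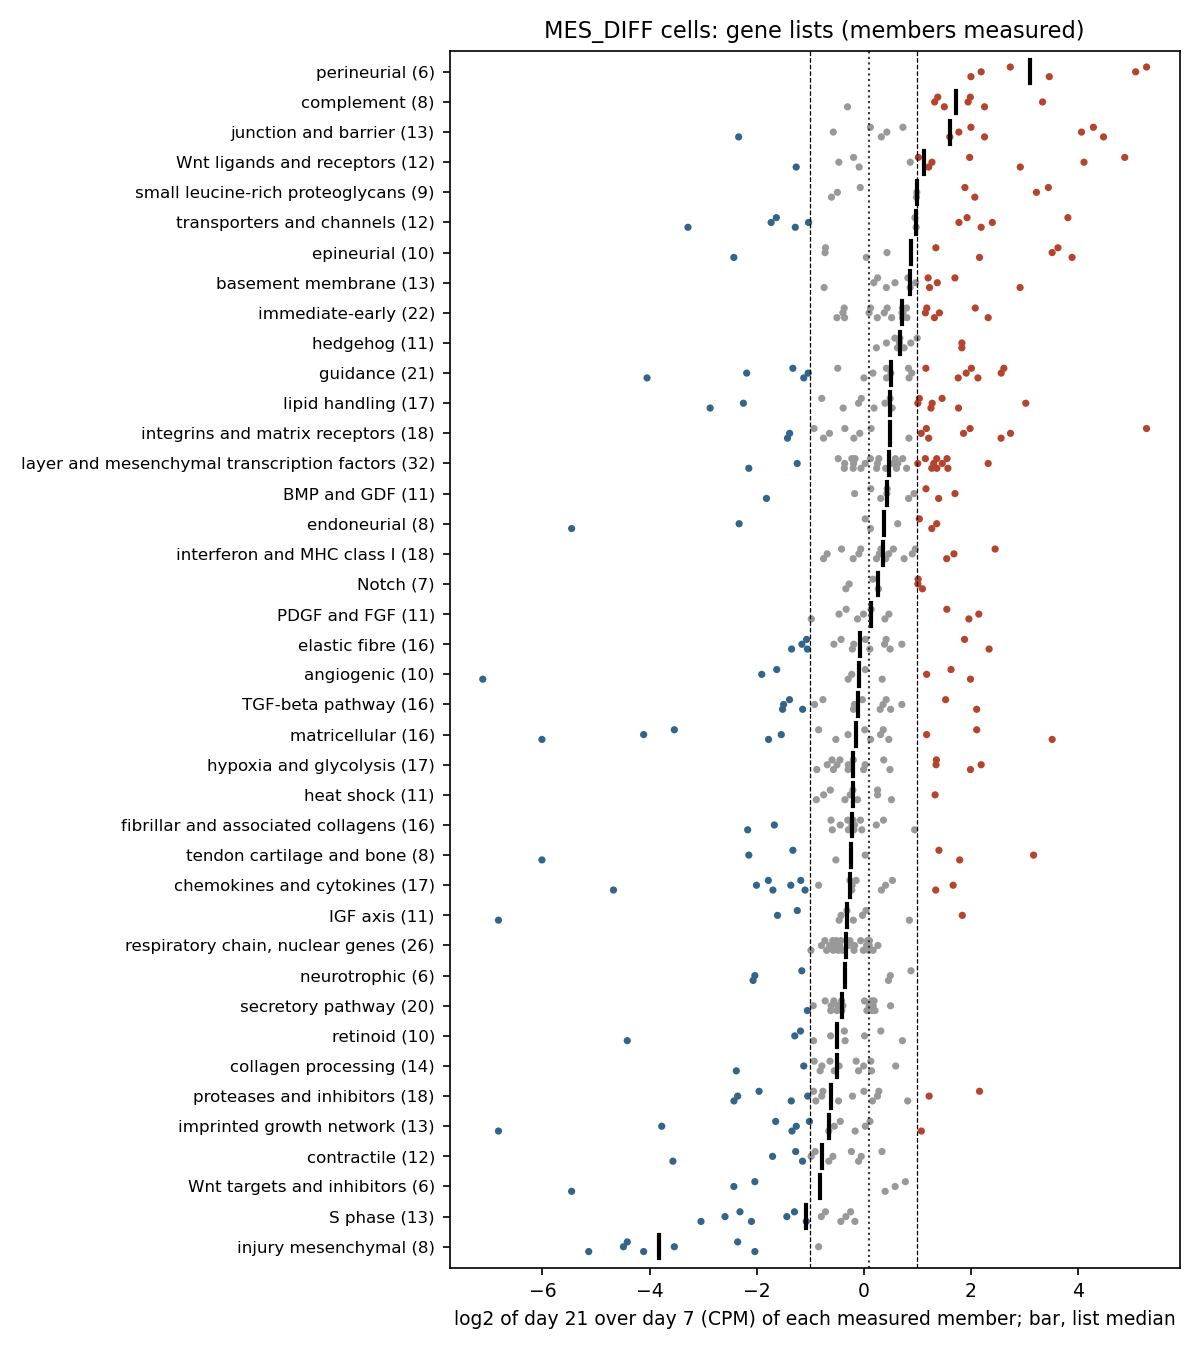
Log2 ratio of day 21 to day 7 for each measured member of the gene lists with 6 or more measured members; bars are list medians. The dotted line is the median of all genes, 0.10, and the dashed lines mark 2-fold. The injury list lies lowest, with a median of -3.82, and the perineurial list highest, with 3.10, whereas collagens lie near the median of all genes.

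Some immediate-early genes, which respond within minutes to stimuli and to tissue dissociation, were higher at day 21. Of 23 listed 22 were measured, 6 over 2-fold higher and none over 2-fold lower, and the sums were 23151 CPM at day 21 and 13686 CPM at day 7. Socs3, a feedback inhibitor of cytokine receptors, was at 1450 CPM at day 21 and 290 CPM at day 7, 4.99-fold higher (4.76 to 5.24), and Fos at 5050 CPM at day 21 and 2028 CPM at day 7, 2.49-fold higher (2.44 to 2.54). The sum was 27604 CPM in the day 21 cells of cluster 7 and 7806 CPM in those of cluster 4, against 13452 CPM in cluster 13 and 14650.5 CPM in cluster 12 at day 7. These sums thus differed more between day 21 clusters than between the days. The 11 heat shock genes had a median log2 ratio of -0.21 with 1 over 2-fold higher, and the part of handling in these values was not tested.

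Respiratory chain and secretory pathway genes differed little, unlike several of the lists given after them. All 26 nuclear respiratory chain genes were measured and none passed 2-fold, with a median log2 ratio of -0.34. Secretory pathway genes had 20 of 21 measured, a median of -0.40 and 1 over 2-fold lower, Sec61b, a subunit of the translocation channel, at 455 CPM at day 21 and 945 CPM at day 7. Glycolysis and hypoxia genes had 17 of 21 measured and a median of -0.20, with 4 higher, Slc2a1 among them. Lipid genes had 17 of 22 measured, 7 over 2-fold higher and 2 lower; Lpl, lipoprotein lipase, was at 237 CPM at day 21 and 29.1 CPM at day 7, 8.13-fold higher (7.04 to 9.43), and Fabp5, a fatty acid binding protein, at 9.46 CPM at day 21 and 70.0 CPM at day 7. Transporters and channels had 12 of 17 measured, 5 in each direction, Aqp1, a water channel, at 1.28 CPM at day 21 and 13.6 CPM at day 7 and Slc16a1, a lactate transporter, at 149 CPM at day 21 and 43.6 CPM at day 7. Integrins and matrix receptors had 18 of 24 measured, 8 higher and 2 lower, with Itga6, the partner of integrin beta 4, at 103 CPM at day 21 and 28.4 CPM at day 7. Of 45 listed transcription factors 32 were measured, 10 higher and 2 lower; Klf5 was at 422 CPM at day 21 and 84.5 CPM at day 7, 4.99-fold higher (4.56 to 5.47), and Meox2, a mesenchymal homeobox factor, at 459 CPM at day 21 and 179 CPM at day 7. Tendon, cartilage and bone genes had 8 of 26 measured, 3 in each direction.

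Some markers of other cell types differed between the days, while many did not reach 10 CPM at either day. Schwann cell markers summed to 193 CPM at day 21 and 45.2 CPM at day 7, and 3 of the 4 measured of 8 were over 2-fold higher. S100b, which other cell types express too, was at 48.6 CPM at day 21 and 34.7 CPM at day 7. The defining gene Sox10 had 7 UMIs at day 21 and 6 at day 7. Pericyte markers had 3 of 8 measured, with Cspg4 at 81.0 CPM at day 21 and 17.1 CPM at day 7 but Rgs5 at 4.09 CPM at day 21 and 5.62 CPM at day 7. Endothelial markers also had 3 of 8 measured, 2 over 2-fold higher and 1 over 2-fold lower. Cdh5 was at 129 CPM at day 21 and 54.98 CPM at day 7, but Kdr at 3.58 CPM at day 21 and 10.4 CPM at day 7. Pecam1 was at 1.02 CPM at day 21 and 1.62 CPM at day 7. Of the smooth muscle markers 3 of 8 were measured, and Myh11 had 4 UMIs at day 21 and 7 at day 7. Tendon and cartilage cell markers had 2 of 10, Tnmd at 27.4 CPM at day 21 and 3.00 CPM at day 7 and Thbs4 at 207 CPM at day 21 and 298 CPM at day 7. The part of these markers in the results was not tested beyond leaving out some cells. Those left out had 3 or more UMIs of endothelial, Schwann or leukocyte markers, 221 at day 21 and 175 at day 7. Spp1, Tnc, Gsn and Cav1 were then still past 2-fold in the same direction. Cells with pericyte, smooth muscle or tendon markers were not left out.

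A handful of genes were detected at day 7 only. Of the 8376 measured genes, 6 had 0 UMIs at day 21, which allows up to 3 UMIs, and they are named after their values were seen. Krt18, a keratin of simple epithelia, had 252 UMIs at day 7 in 6.82% of cells and was at least 41.1-fold lower at day 21. Esm1, a secreted proteoglycan best known from sprouting endothelium, had 141 UMIs at day 7 and was at least 23.0-fold lower. Spock3, Sox11 and Galnt3 had 120, 89 and 82 UMIs at day 7, and the sixth was Igf2. No measured gene had 0 UMIs at day 7. The day 7 sum held 8003351 UMIs and the day 21 sum 3911179, so a gene at a low level is more likely to read 0 at day 21.

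Many of these genes also differed in other classes. Of the 757 genes over 2-fold higher, 371 were also over 2-fold higher in MES_PERI, 272 in MES_DIV, 239 in MES_EPI and 205 in MES_ENDO, and of the 399 lower genes 252, 187, 134 and 175 were lower there in the same order of classes. Over all 8376 genes the shares higher were 6.26% in MES_PERI, 5.1% in MES_DIV, 3.58% in MES_EPI and 3.94% in MES_ENDO, and the shares lower were 5.43%, 4.37%, 2.44% and 3.93% in that order. The classes share their libraries, so these counts are not independent of each other. Gsn was higher at day 21 in all 5 classes, with log2 ratios of 4.07 in MES_DIFF, 2.25 in MES_DIV, 2.20 in MES_ENDO, 2.98 in MES_EPI and 2.26 in MES_PERI. Tnc was lower in all 5, at -3.54 in MES_DIFF, -2.79 in MES_DIV, -3.24 in MES_ENDO, -3.63 in MES_EPI and -2.63 in MES_PERI. Periostin was not lower in all, since Postn had a log2 ratio of 0.39 in MES_PERI, and Ptn, at -2.03 in MES_DIFF, was at -0.17 in MES_EPI. With 1 library for each day the differences between classes were not tested.

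**Figure D5:**
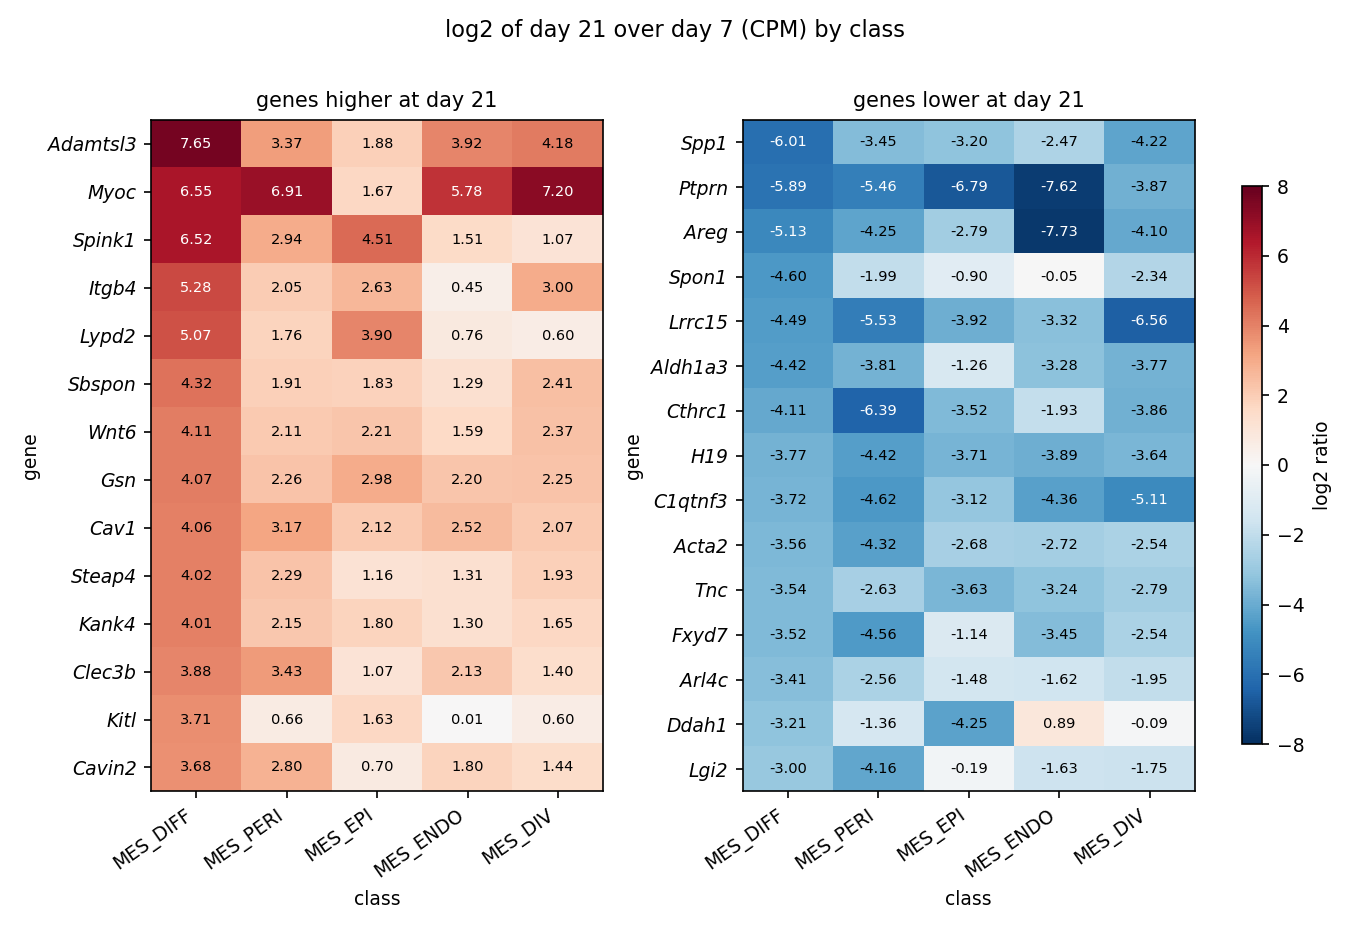
Log2 ratio of day 21 to day 7 for genes among the 15 that differed most in each direction, in MES_DIFF (first column) and in the 4 other classes with 50 or more cells at both days; red is higher and blue lower at day 21. Gsn and Cav1 are higher and Tnc, H19 and Spp1 lower in every column, Kitl is near 0 in MES_ENDO, and cells with 0 UMIs at day 21 (Ptprn in MES_ENDO and MES_EPI, Lrrc15 in MES_DIV) depend on the 0.5 counts added.

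What marks the class against its neighbours also differed between days. Set against all other annotated cells of the same library, the 20 genes with the largest ratio at each day had 4 in common, 20% of each list: Tnc, F2rl1, Tgfb2 and St8sia2. Tnc led at day 21, at 152 CPM in MES_DIFF and 26.0 CPM in the other cells, and was the next after Ptprn at day 7, at 1765 CPM in MES_DIFF and 455 CPM in the others. At day 21 it was followed by S100a4, a calcium-binding protein of motile fibroblasts, at 430 CPM in MES_DIFF and 99.7 CPM in the others, and at day 7 by Spp1 at 1127 CPM in MES_DIFF and 305 CPM in the others. The authors' class was built from these cells, so the ratios describe it and test nothing. The Tnc level of MES_DIFF at day 21 rested on few cells, as given above, and its day 21 cells in cluster 4, at 14.4 CPM, were below the 26.0 CPM of the other cells.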

How the data were processed

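Droplet single-cell RNA libraries of TdTomato+ cells were analysed as deposited, with 1 count matrix per library. Per the submitters' processing notes Cell Ranger 3.0.2 and 6.1.2 and Seurat 4.0.1 were used, with no step named for them. The deposited counts are whole UMI counts per gene and barcode, and classes were taken from the authors' deposited cell table, of whose 7235 bridge and nerve cells 1 was not found in its matrix. No cells were filtered beyond the authors' annotation, and no doublet caller was run. Total depth was 3911179 UMIs in day 21 MES_DIFF cells and 8003351 in day 7 cells.

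UMI counts were summed per class and library and divided by their total (CPM). Genes at 10 CPM or more in the higher library were measured, and a gene past 2-fold was counted. A gene that passed only through its higher library was bound to differ, so list counts are descriptions. Ratios have exact conditional binomial intervals at 95%; a sum of 0 was read as 3 counts. Cells were not treated as replicates and no p-value was computed. Thinning drew 2000 UMIs per cell at random with a fixed seed. Clusters came from Leiden clustering in scanpy 1.11.5 (2000 variable genes, 30 components, 15 neighbours, resolution 1). The ratio script was tested on simulated counts.

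Named genes were, per direction, the 15 of largest ratio at 50 CPM or more with a UMI in 10% of cells, up to 5 members at 20 CPM or more of each of 54 gene lists, and the 20 leading genes of each library; mitochondrial, ribosomal and numbered-clone features and markers of non-mesenchymal cells were left out of the first group. Other list members, the neighbouring gene pairs and the genes at 0 UMIs were named after their values were seen. The members and lists were chosen with earlier results of these data known. Promoter sequences are from RefSeq (GRCm38.p6), and 170 of 246 named genes had one. A few items the rule names are not reported here. Of 12 alternatives 10 were planned and 2 added after seeing the data. Analysis used Python 3.11.15, numpy 2.4.6, scipy 1.17.1, pandas 2.3.3 and matplotlib 3.10.9.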

Additional observations from a re-analysis of the deposited data

Results flagged for a closer look

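In 7 genes a class other than MES_DIFF went past 2-fold in the opposite direction between day 21 and day 7, in 9 combinations of gene and class. With 1 library for each day, none of these differences was tested. In MES_PERI the log2 ratio was -1.75 for Meox1, -1.80 for Apod and -2.56 for Hhip, against 1.36, 1.03 and 1.83 in MES_DIFF. In MES_DIV it was -1.41 for Apod and -1.01 for Tnmd, and in MES_EPI -1.37 for Tnmd, against 3.17 for Tnmd in MES_DIFF. The Tnmd value of MES_DIFF rested on 107 UMIs at day 21 and 24 at day 7, and was 1.26 after thinning. Fabp4 was at -1.88 in MES_ENDO and at 1.77 in MES_DIFF. The Fabp4 value of MES_DIFF did not hold: it was 0.067 after thinning and 0.68 with each cell weighted alike. In the other direction, Adam12 was at 1.06 in MES_ENDO and -2.36 in MES_DIFF, and Gjb2 at 1.06 in MES_EPI and -2.34 in MES_DIFF.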

How the results depend on the processing

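No paired analysis was possible because each day is 1 library. The count of genes over 2-fold higher was 757, and became 1188 with cells thinned to 2000 UMIs, 288 with a minimum of 50 CPM and 2012 with more than 3 counts in either library. The count over 2-fold lower was 399, and became 732, 158 and 1672 under the same 3 settings, in which the number of genes tested or the depth also differs. The median of all genes was -0.028 at a minimum of 50 CPM. The endothelial list had a median log2 ratio of -0.19 without mitochondrial and ribosomal genes in the total and -0.25 in cluster 7 at day 21 against cluster 13 at day 7. The tenocyte and chondrocyte list had -0.52 at a minimum of 50 CPM and -1.50 with more than 3 counts, where the pericyte list had -0.079 and Wnt ligands and receptors -0.14. Without cells that carry 3 or more UMIs of endothelial, Schwann or leukocyte markers (221 at day 21 and 175 at day 7), Fabp4 was at -0.46. Fabp4 was also within 2-fold after thinning, with each cell weighted alike and in cluster 7 at day 21 against cluster 13 at day 7. List medians nearer 0 also changed sign under some settings: over the 12 alternatives they ranged from -1.63 to 0.68 for Wnt targets and inhibitors, -1.60 to 0.46 for neurotrophic, -1.25 to 0.14 for angiogenic, -0.84 to 0.088 for matricellular, -0.35 to 0.095 for elastic fibre, -0.18 to 0.031 for TGF-beta, -0.076 to 0.54 for PDGF and FGF, -0.026 to 0.56 for integrin and -0.15 to 0.40 for sex-linked genes. Among the other genes named in the text, Hbegf, Boc, Hes1, Cxcl2 and Sec61b were within 2-fold after thinning. Hhip, Wnt5a, Rdh10, Hbegf and Cxcl2 were so in cluster 7 at day 21 against cluster 13 at day 7. Apod and Hbegf were so with each cell weighted alike. Apod was also within 2-fold without mitochondrial and ribosomal genes in the total, and without cells carrying 3 or more endothelial, Schwann or leukocyte UMIs. Without cells carrying 3 or more perineurial UMIs after thinning (125 at day 21 and 5 at day 7), Apod, Cdh5, Hes1 and Sec61b were within 2-fold. The cause of these changes was not tested. Under all 12 alternatives the 30 genes with the largest ratios stayed past 2-fold in the same direction, and between 158 and 173 of 173 named genes did. The minimum of 50 CPM and the limit of more than 3 counts change no gene's ratio, so all 173 were bound to stay there. Leaving out shared barcodes removed only 1 day 7 cell. The 30 genes were picked for large ratios in these same data, so their staying past 2-fold is a weak check. The injury list ranged from -4.69 to -3.39 and the perineurial list from 2.18 to 4.26. With 1 library for each day, the spread between animals is unknown, and day cannot be told apart from library, depth or sort.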

Other observations

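The intact nerve library held 16 MES_DIFF cells with 113978 UMIs, too few for a comparison, and their values are given as they stand. Gsn was at 17258 CPM, Dcn at 12862 CPM, Igfbp6 at 8554 CPM, Clec3b at 1141 CPM and Postn at 842 CPM. Tnc, Spp1, Cthrc1 and H19 had 0 UMIs there. Wnt6 had 1 UMI, Mest 2 and Cav1 23. Of the 16 cells, 11 fell in cluster 2, a cluster that held 1 day 21 and 0 day 7 cells of the class.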
